A study of Rattus norvegicus with 4 samples.

Results

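Calcium in vascular smooth muscle was followed through 10 genes that together bring calcium into the cell, let it out of the internal store and pump it back. They were Cacna1c, Cacnb2, Itpr1, Ryr2, Stim1, Orai1, Trpc6, Atp2a2, Atp2b4 and Pln. Their probes were found by the RefSeq accession printed for each probe, matched to rat gene symbols, which gave 18 probes for the 10 genes among 16581 named genes on the array. Of the 10 genes, 9 read well above background on 1 array or more and 7 did so on all 4 arrays, against 9966 and 8600 of all named genes.

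RNA came from vessels of male rats. It was read on 1-colour microarrays with 1 array in each of 4 groups: vessels of rats with a PKCbeta deletion treated with angiotensin II (KO Ang II), vessels of such rats without it (KO untreated), vessels of Wistar rats treated with angiotensin II (WT Ang II) and vessels of Wistar rats without it (WT untreated). Treatment lasted 24 h and the series text gives 4 rats of each genotype. The sources used here do not give the rats' age, the vessel bed, whether animals were pooled on an array, or whether the deletion is limited to a cell type. PKCbeta, encoded by Prkcb, is a kinase that is switched on by diacylglycerol and calcium. Angiotensin II (Ang II) is a peptide hormone that constricts vessels.

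Contraction of a smooth muscle cell starts when calcium reaches calmodulin, which switches on myosin light chain kinase. The calcium enters through voltage-gated L-type channels and through receptor- and store-operated channels, and it is released from the sarcoplasmic reticulum by inositol trisphosphate receptors and ryanodine receptors. Relaxation needs the calcium to be pumped back into the reticulum or out of the cell. Angiotensin II acts on its type 1 receptor through Gq and phospholipase C, whose products open the inositol trisphosphate receptor and switch on kinase C.

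With 1 array in each group no comparison has biological replicates, and no difference between single arrays was tested. A signal is the background-subtracted fluorescence of a probe, in scanner units. A level is the log2 of that signal minus the log2 of its array's 75th percentile, and a ratio is a difference of 2 levels, so that 1 on this scale is 2-fold. The ± beside a ratio is its technical error, from replicate spots where a probe had several and from the scanner software's error model otherwise. It holds nothing of the spread between rats. A ratio of 2-fold or more was the size rule, and a gene below background on 1 side was given only a bound, written as at least. That side took the larger of its own signal and the array's lowest signal well above background. Where its own signal was the larger, the bound is the fold between the levels as read, and it is written as read instead. It is then not a strict limit, and no technical error was taken for it.

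Prkcb checked the genotype labels and not the Ang II labels. Its brighter probe gave signals of 1.89 in KO Ang II and 1.94 in KO untreated, neither well above background, against 18.0 in WT Ang II and 14.8 in WT untreated. Its other probe gave 1.73 and 1.90 in KO, against 12.2 and 8.27 in WT, in the same order. On that probe only WT Ang II was well above background. The sources used here do not say whether either probe lies within the deleted stretch. The 75th percentile of signal was 52.1 and 47.3 on the KO arrays and 62.4 and 58.7 on the WT arrays, and between 40.7% and 43.6% of probes were well above background. All 12 smooth muscle markers were well above background on every array. Of 10 cardiac muscle markers, 8 were not well above background on any array, among them Myh6, Myh7 and Tnni3, the heavy chains and inhibitory troponin of heart muscle. The remaining markers, Actc1 and Tnnt2, were well above background on all 4 arrays. Actc1 had signals of 134 and 136 in KO, against 174 and 142 in WT. Tnnt2 had 15.8 and 16.2 in KO, against 15.6 and 12.8 in WT.

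The L-type pore gene Cacna1c read higher in KO with and without Ang II, and so did Cacnb2, less clearly without Ang II. Cacna1c encodes the pore of the L-type channel, Cav1.2, the target of dihydropyridine drugs. Its probe A_44_P203145 had signals of 98.4 in KO Ang II and 97.3 in KO untreated, against 67.0 in WT Ang II and 77.3 in WT untreated. As levels these were 0.92 and 1.04 in KO, against 0.10 and 0.40 in WT. Both KO arrays thus lay above both WT arrays. The ratio of KO to WT was 0.82 ± 0.21 with Ang II and 0.64 ± 0.21 without it. Under another background correction, normexp with an offset of 50 on median pixel signals, they were 0.49 and 0.25. The offset is added to every signal, so by itself it draws ratios of low signals towards 0. Ang II against no Ang II gave -0.12 ± 0.21 in KO and -0.30 ± 0.21 in WT, both below 2 technical errors. The gene's other probes, A_44_P132903 among them, read between 1.88 and 5.94 and were not well above background on any array, so the gene's value rests on 1 probe.

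Cacnb2 encodes a beta subunit, which brings the pore to the membrane and tunes its opening. Its probe A_42_P525317 had signals of 261 in KO Ang II and 230.3 in KO untreated, against 190.4 in WT Ang II and 217 in WT untreated. The levels were 2.32 and 2.28 in KO, against 1.61 and 1.89 in WT, so again both KO arrays were the higher ones. The ratio of KO to WT was 0.72 ± 0.20 with Ang II and 0.39 ± 0.20 without it. The ratio without Ang II lay within 2 technical errors. With normexp the ratios with and without Ang II were 0.40 and -0.01. Ang II against no Ang II gave 0.04 ± 0.20 in KO and -0.28 ± 0.20 in WT. A further Cacnb2 probe read between 2.35 and 7.72 and was not well above background.

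The promoters of these subunits are shown because their ratios of KO to WT with Ang II were the highest of those measured among the 10 genes. The windows run 5′ to 3′ on the gene's strand from 250 bases before to 50 bases after the annotated start, from RefSeq on the GRCr8 build, and capitals mark the GC box GGGCGG or its reverse complement CCGCCC. RefSeq gives Cacnb2 more than 1 start. The window of Cacna1c is at chr4:154051699-154051998 on the minus strand, and those of Cacnb2 are at chr17:82472965-82473264 and chr17:82596542-82596841 on the plus strand.
Cacna1c: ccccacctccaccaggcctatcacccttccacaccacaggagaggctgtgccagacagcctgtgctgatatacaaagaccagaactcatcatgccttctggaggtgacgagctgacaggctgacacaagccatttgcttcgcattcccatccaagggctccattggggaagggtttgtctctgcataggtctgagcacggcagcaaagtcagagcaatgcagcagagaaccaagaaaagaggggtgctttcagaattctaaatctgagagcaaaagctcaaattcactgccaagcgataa
Cacnb2, first window: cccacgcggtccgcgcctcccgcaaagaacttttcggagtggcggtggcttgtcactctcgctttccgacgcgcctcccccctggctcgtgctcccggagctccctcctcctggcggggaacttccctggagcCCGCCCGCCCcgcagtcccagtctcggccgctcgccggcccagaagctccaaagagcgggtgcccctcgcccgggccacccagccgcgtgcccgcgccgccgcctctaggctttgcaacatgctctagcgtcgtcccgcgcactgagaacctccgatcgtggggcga
Cacnb2, second window: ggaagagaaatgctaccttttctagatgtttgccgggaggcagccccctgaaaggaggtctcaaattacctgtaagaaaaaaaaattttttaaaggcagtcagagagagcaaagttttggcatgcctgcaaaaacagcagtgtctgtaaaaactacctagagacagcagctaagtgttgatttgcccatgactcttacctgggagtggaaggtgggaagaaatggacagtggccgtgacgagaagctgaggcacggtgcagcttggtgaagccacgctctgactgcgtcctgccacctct
The first Cacnb2 window held 37 CpG dinucleotides, its second window 6 and the Cacna1c window 4, against a median of 7 over 33469 rat promoters of this length. In the first Cacnb2 window 2 GC boxes overlapped on the reverse strand, at positions -117 and -113 counted from the start. A GC box stood in 5 of the 11 windows of the 10 genes and in 33.1% of all promoters. The TATA box TATAAA stood in none of the 11 windows and in 14.2% of all promoters, and the CArG box, which serum response factor binds at smooth muscle genes, in none of the 11 and in 1.64% of all. Both strands were searched. A match in such a window is a description of its letters, and no factor's binding was measured.

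**Figure D1:**
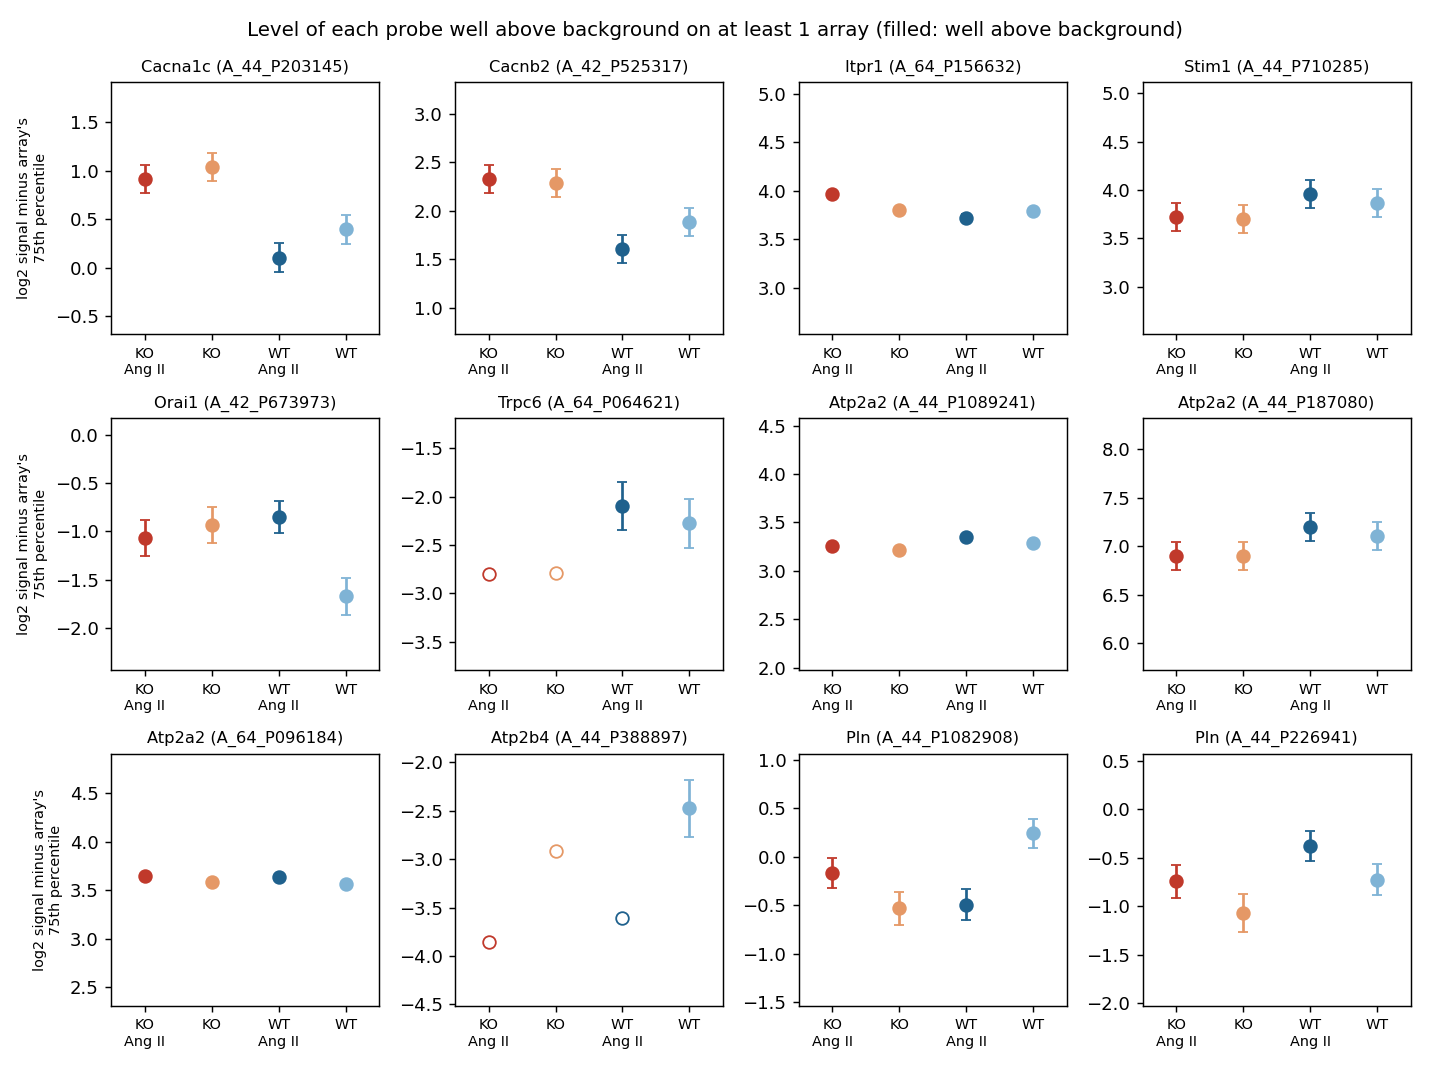
Level of each probe that passed the background call on 1 array or more (log2 signal minus the array's 75th percentile), in KO Ang II, KO untreated, WT Ang II and WT untreated. Filled points were well above background, open points were not, bars are the technical error, and the level axes span the same length. Cacna1c lies at 0.92 and 1.04 in KO, above 0.10 and 0.40 in WT.

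Of the release channels, the inositol trisphosphate receptor was plainly present and the cardiac-type ryanodine receptor was not detected. Itpr1 encodes the type 1 receptor, which opens when inositol trisphosphate is made. Its probe A_64_P156632 was printed in 10 spots on each array, with signals of 815 ± 48.5 in KO Ang II, 663 ± 38.9 in KO untreated, 822 ± 78.4 in WT Ang II and 812 ± 46.7 in WT untreated (SD over 10 spots). After scaling, the levels were 3.97 and 3.81 in KO, against 3.72 and 3.79 in WT. The KO arrays lay above the WT arrays, but KO untreated did so by only 0.02 ± 0.04 on the log2 scale. With Ang II the ratio of KO to WT was 0.25 ± 0.05, or 0.06 with normexp. Ang II against no Ang II gave 0.16 ± 0.04 in KO and -0.07 ± 0.05 in WT. The sign of the small untreated ratio turned under quantile normalization and under normexp, and that of the WT ratio under normexp.

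**Figure D2:**
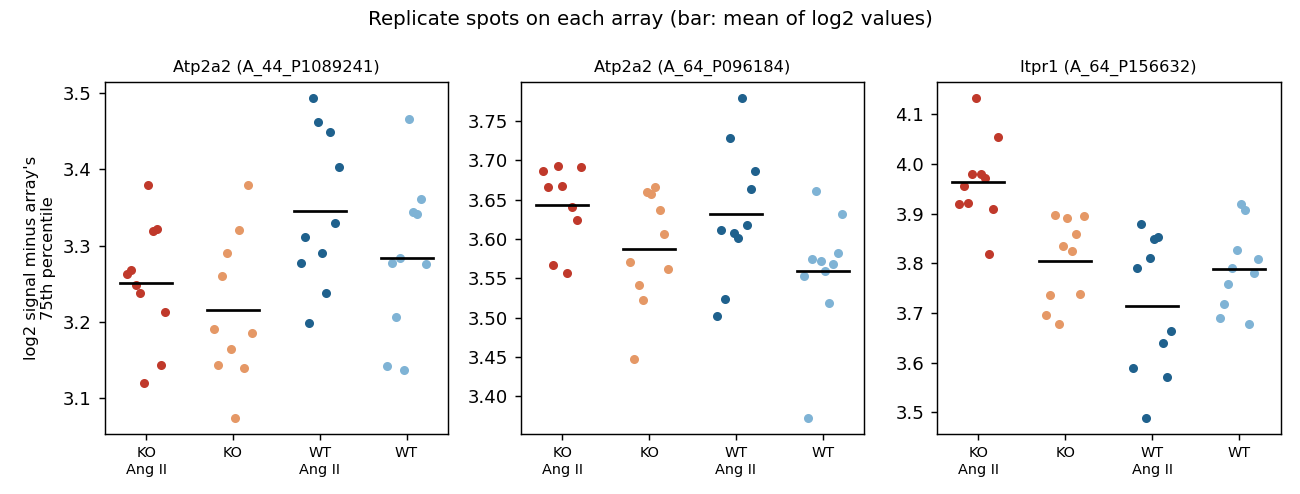
Level of each replicate spot (log2 signal minus the array's 75th percentile) for the 3 probes printed in up to 10 spots, 2 of Atp2a2 and 1 of Itpr1, by group; black bars are means of the log2 values. For Itpr1 the spots centre on 3.97 in KO Ang II, and on 3.81, 3.72 and 3.79 in KO untreated, WT Ang II and WT untreated. The spots of all 4 arrays overlap in part.

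Ryr2 encodes the ryanodine receptor best known from heart, which opens when calcium binds it. Its probe A_42_P567086 gave signals of 4.94 in KO Ang II and 3.45 in KO untreated, against 7.46 in WT Ang II and 8.22 in WT untreated. Its probe A_64_P000023 gave 5.35 and 5.26 in KO, against 1.83 and 1.75 in WT. None of these was well above background on any array, and the probes ran in opposite directions, so no ratio was taken.

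The store-operated pair did not read alike. Stim1 encodes the sensor that detects an emptied reticulum. Its probe A_44_P710285 had signals of 687 in KO Ang II and 615 in KO untreated, against 971 in WT Ang II and 856 in WT untreated. The levels were 3.72 and 3.70 in KO, against 3.96 and 3.87 in WT, so both KO arrays were lower than both WT arrays. The ratios of KO to WT were -0.24 ± 0.20 with Ang II and -0.17 ± 0.20 without it, both within 2 technical errors. Ang II gave 0.02 ± 0.20 in KO and 0.09 ± 0.20 in WT.

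Orai1 encodes the membrane pore that Stim1 opens. Its probe A_42_P673973 had signals of 24.9 in KO Ang II and 24.8 in KO untreated, against 34.6 in WT Ang II and 18.4 in WT untreated. The levels were -1.06 and -0.93 in KO, against -0.85 and -1.67 in WT. The WT arrays held both the highest and the lowest level, and the genotypes overlapped. The WT untreated array stood apart from the other 3. Ang II gave -0.13 ± 0.26 in KO and 0.82 ± 0.25 in WT, and the difference of these responses was -0.95 ± 0.36. The ratio of KO to WT was -0.21 ± 0.25 with Ang II and 0.74 ± 0.27 without it. With normexp the response in WT was 0.24, the difference -0.31 and the untreated ratio of KO to WT 0.28.

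Trpc6 encodes a cation channel that diacylglycerol opens, a receptor-operated route for calcium. Its probe A_64_P064621 gave signals of 7.48 in KO Ang II and 6.87 in KO untreated, neither well above background, against 14.6 in WT Ang II and 12.1 in WT untreated, which were. With the dim KO signals taken as read, KO was lower than WT by 1.63-fold with Ang II and by 1.42-fold without it. These folds are not strict limits and carry no technical error. In WT, Ang II gave 0.18 ± 0.35.

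The pumps and their regulator showed small or disagreeing differences. Atp2a2 encodes SERCA2, which pumps calcium back into the reticulum. Its brightest probe, A_44_P187080, had signals of 6213 in KO Ang II and 5634 in KO untreated, against 9157 in WT Ang II and 8071 in WT untreated. The levels were 6.90 and 6.90 in KO, against 7.20 and 7.10 in WT, so the KO arrays were lower, by -0.30 ± 0.20 with Ang II and -0.21 ± 0.20 without it. The probe A_44_P1089241, in 10 spots an array, gave -0.10 ± 0.04 and -0.07 ± 0.04 for the same ratios. The probe A_64_P096184, in 9 or 10 spots, gave 0.01 ± 0.03 and 0.03 ± 0.03. The lower reading of KO on the brightest probe was therefore not shared by all 3 probes. For Ang II the brightest probe gave 0.00 ± 0.20 in KO and 0.09 ± 0.20 in WT.

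Atp2b4 encodes a calcium pump of the plasma membrane. Its probe A_44_P388897 gave signals of 3.60 in KO Ang II, 6.26 in KO untreated and 5.13 in WT Ang II, none well above background, against 10.6 in WT untreated, which was. From that single array, KO read lower than WT by 1.36-fold without Ang II, with the dim KO signal taken as read. In WT the Ang II array read lower than the untreated one by at least 1.57-fold.

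Pln encodes phospholamban, the small protein that holds SERCA2 back until it is phosphorylated. Its brighter probe, A_44_P1082908, had signals of 46.4 in KO Ang II and 32.8 in KO untreated, against 44.3 in WT Ang II and 69.5 in WT untreated. The levels were -0.17 and -0.53 in KO, against -0.49 and 0.24 in WT, and the genotypes overlapped. Ang II gave 0.36 ± 0.23 in KO and -0.74 ± 0.22 in WT, and the difference of these responses was 1.10 ± 0.32. The ratio of KO to WT was 0.33 ± 0.22 with Ang II and -0.77 ± 0.23 without it. The other Pln probe, A_44_P226941, had signals of 31.2 and 22.6 in KO, against 48.1 and 35.6 in WT. On it Ang II gave 0.33 ± 0.26 in KO and 0.35 ± 0.22 in WT, a difference of responses of -0.02 ± 0.34. Its ratio of KO to WT was -0.36 ± 0.23 with Ang II and -0.34 ± 0.25 without it. The probes gave opposite signs for KO against WT with Ang II, for Ang II in WT and for the difference of responses, and the same sign for the other ratios.

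**Figure D3:**
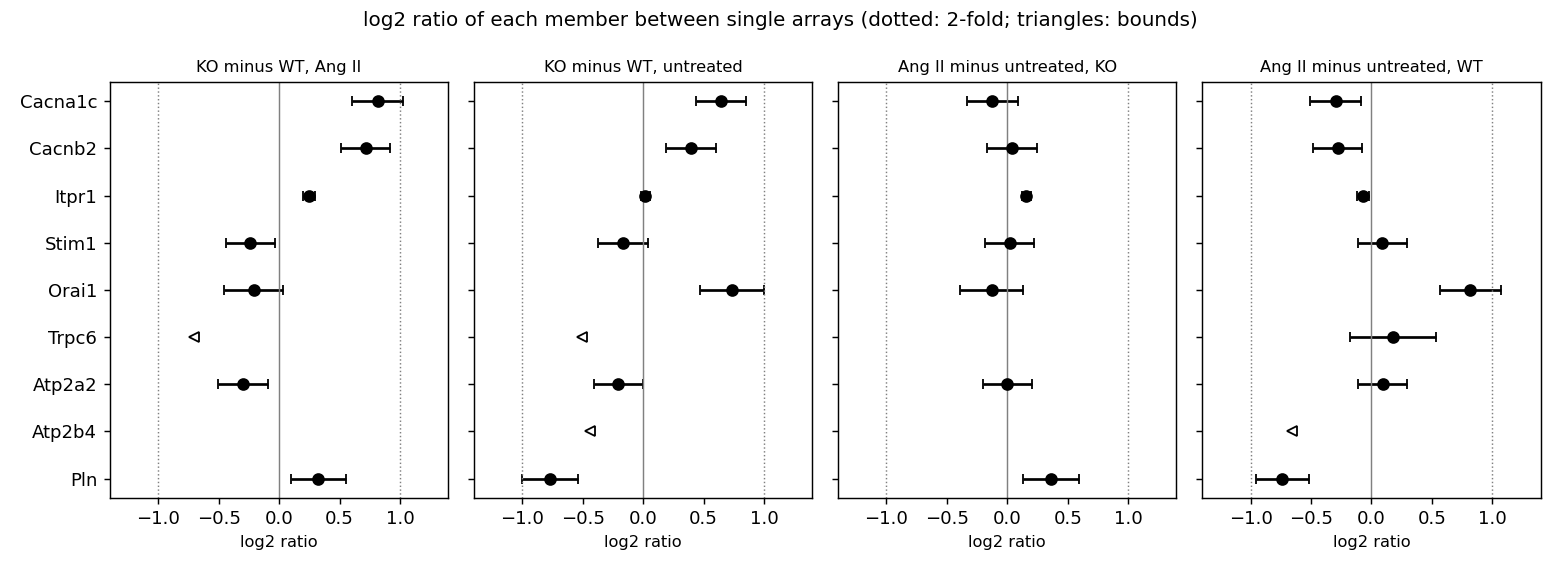
log2 ratio of each gene's brightest detected probe between single arrays, in 4 panels (KO minus WT with Ang II, KO minus WT untreated, Ang II minus untreated in KO, Ang II minus untreated in WT); bars are technical errors, dotted lines 2-fold, triangles bounds. Cacna1c (0.82 and 0.64) and Cacnb2 (0.72 and 0.39) lie right of 0 in both KO panels, and no gene reaches 2-fold in any panel.

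No gene of the 10 reached 2-fold in any single comparison. For KO against WT the count was 0 of 8 compared with Ang II, where 7.14% of all named genes passed, and 0 of 9 without it, where 6.96% passed. For Ang II it was 0 of 7 in KO and 0 of 9 in WT, against 1.84% and 3.01% of all genes. In the difference of responses 1 of 7 passed, Pln by its brighter probe, against 4.14% of all genes. With normexp that value of Pln was 0.51 and passed no longer, nor did it when the gene's probes were averaged, at 0.54. The median ratio of KO to WT was 0.25 over the 7 measured with Ang II and 0.02 over the 7 measured without it. Over all genes measured on both arrays it was -0.02 and 0.04. The medians of the set leave out genes that were dim in KO and read lower there. These were Trpc6, at -0.71 with Ang II and -0.51 without it, and Atp2b4, at -0.44 without it. These comparisons share arrays, so they are not independent of one another.

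Of the 7 genes above background on all arrays, 5 had both KO arrays on 1 side of both WT arrays: Cacna1c, Cacnb2 and Itpr1 above, Atp2a2 and Stim1 below. The same held for 63.9% of all such genes, so a share of this size was common on these arrays. The median span of levels over the 4 arrays was 0.72 for the 7 genes, against 0.50 over all such genes. The widest span of the 7 was 0.94, for Cacna1c, and 11.7% of all such genes had a span of at least 1.

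An additive fit of genotype and treatment over the 4 arrays leaves 1 residual degree of freedom, which also holds any real difference of responses. In limma with Benjamini-Hochberg adjustment over 9387 genes, 0% of genes were called for genotype and 0% for treatment at an adjusted p of 0.05, and so none of the 8 genes of the set that entered it. At an unadjusted p of 0.05 the fit gave 2453 genes for genotype and 360 for treatment. Cacna1c had a genotype coefficient of 0.73 (SE 0.16) with a limma adjusted p of 0.117, and it was higher in 2 of 2 KO arrays. Cacnb2 had 0.55 (SE 0.17) with a limma adjusted p of 0.156, also higher in 2 of 2. Trpc6, with its dim signals taken as read, had -0.61 (SE 0.16) with a limma adjusted p of 0.134. The limma adjusted p for genotype was 0.351 to 0.674 for Atp2a2, Stim1, Orai1, Itpr1 and Pln, and for treatment it rounded to 1 for all 8.

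The smooth muscle markers read higher in KO, as the L-type channel did. With Ang II, 11 of 12 markers were higher in KO than in WT with a median ratio of 0.54, the exception being Lmod1 at -0.26. Without Ang II, 11 of 12 were higher with a median of 0.58, the exception being Des at -1.11. The summed linear level of the list was 247 in KO Ang II and 231 in KO untreated, against 165 in WT Ang II and 177 in WT untreated. Set against the marker median, the ratio of Cacna1c was 0.27 higher with Ang II and 0.06 higher without it, and that of Cacnb2 was 0.17 higher and -0.19, which is lower. Itpr1 was at -0.30 and -0.57, Atp2a2 at -0.84 and -0.79 and Stim1 at -0.78 and -0.75 on the same footing. Other cell types' markers differed between the genotypes as well. Fibroblast markers summed to 373 and 407 in KO, against 678 and 647 in WT. With Ang II 7 of 7 were lower in KO (median ratio -0.75), and without it 5 of 7 (median -0.39), with Dcn at 0.14 and Pi16 at 0.50. Macrophage markers summed to 20.02 and 16.2 in KO, against 25.2 and 29.4 in WT, with medians of -0.31 with Ang II and -0.93 without it. Endothelial markers summed to 21.6 and 19.8 in KO, against 23.1 and 25.8 in WT, and 4 of 7 were lower in KO with Ang II (median -0.09) and 6 of 7 without it (median -0.46). The white adipocyte markers Adipoq, Retn and Fabp4 were not well above background in KO untreated. There Adipoq and Retn were lower than in WT by 5.05-fold and 4.11-fold with the dim signals as read. Fabp4 was lower by at least 3.48-fold. Their list summed to 0.557 and 0.371 in KO, against 1.20 and 1.86 in WT. Skeletal muscle markers ran in both directions. Myh1 was well above background in KO only, at least 3.35-fold higher than in WT with Ang II and 4.76-fold without it. Pvalb was well above background in WT only. Of 3 measured on both arrays, 2 were higher in KO with Ang II and 2 without it. The part of the tissue's cell makeup in the ratios of the 10 genes was not tested. In whole vessels fewer cells of a type and less RNA per cell cannot be told apart.

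The wider calcium pathway was read through 7 lists of 121 further genes, of which 114 had a probe and 79 passed the background call on 1 array or more. With Ang II, KO against WT gave 3 genes at least 2-fold higher and 4 lower of 76 compared, which is 9.21%. Without Ang II it gave 3 higher and 6 lower of 75, which is 12%. Over all genes those shares were 7.14% and 6.96%. The median ratio over the genes of the lists measured on both arrays was 0.03 with Ang II and 0.01 without it.

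**Figure D4:**
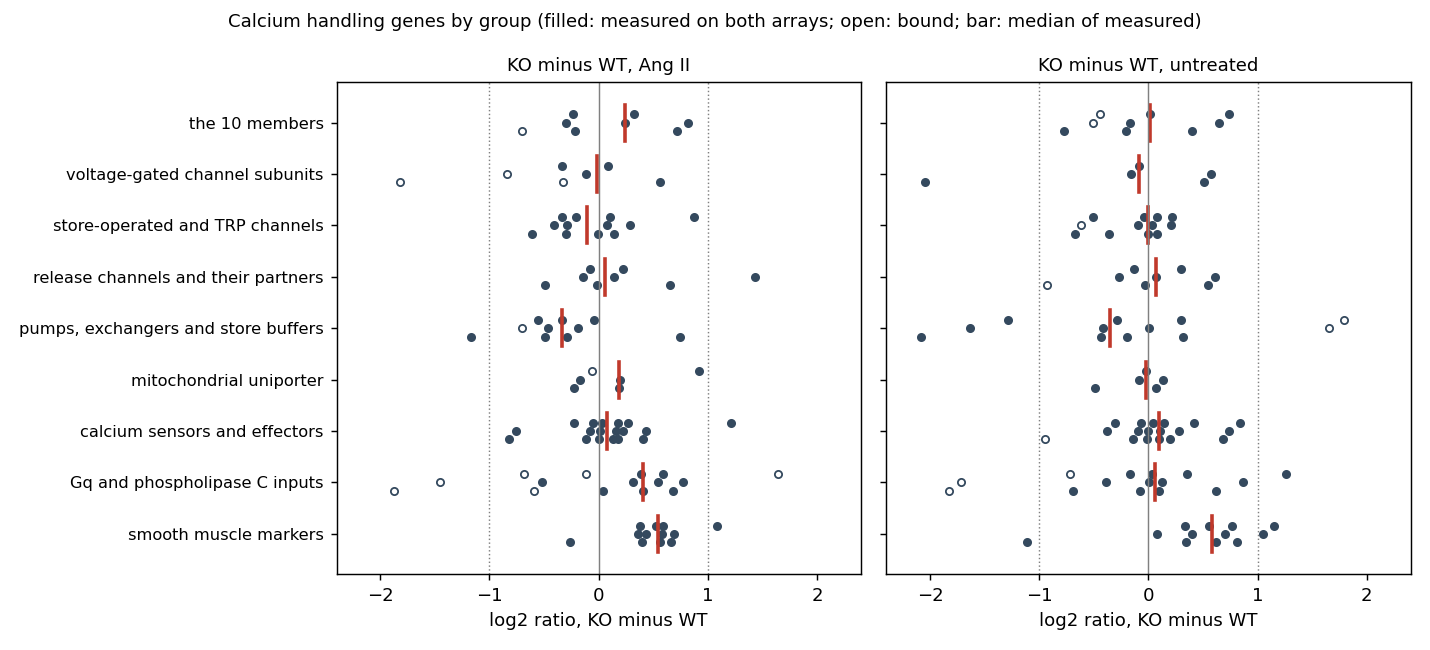
log2 ratio of KO minus WT for every compared gene of the 10, of the 7 pathway lists and of the smooth muscle markers, with Ang II (left) and untreated (right). Filled points were measured on both arrays, open points are bounds, red bars are medians of the measured genes and dotted lines mark 2-fold; the medians of the smooth muscle markers are 0.54 and 0.58.

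Among further channel subunits, the T-type pore gene Cacna1h read lower in KO. It encodes the low-voltage pore Cav3.2 and had signals of 7.91 in KO Ang II, not well above background, and 14.4 in KO untreated, against 33.4 in WT Ang II and 73.7 in WT untreated. KO was the lower genotype with Ang II, by 3.52-fold with the dim KO signal as read. Without it the ratio of KO to WT was -2.05. With Ang II, Cacna1h read lower than without it in KO by 2.0-fold, its dim signal as read. Its ratio for Ang II in WT was -1.23. Cacna2d1, the alpha2-delta subunit of the L-type channel, was chosen after its values were seen. Its signals were 3178 and 3005 in KO, against 2580 and 2511 in WT, with ratios of KO to WT of 0.56 with Ang II and 0.57 without it. Another T-type pore gene, Cacna1i, and the beta subunit genes Cacnb1 and Cacnb3 were also chosen after their values were seen. Cacna1i had ratios of KO to WT of -0.33 with Ang II and 0.51 without it. Cacnb3 had 0.09 and -0.09 and Cacnb1 had -0.11 and -0.16, so the higher reading of Cacnb2 was not shared by these beta subunits. Of the subunits measured on both arrays, 2 of 4 were above 0 with Ang II and 2 of 5 without it.

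Of the pumps, exchangers and store buffers measured on both arrays, 1 of 9 was above 0 with Ang II, with a median ratio of KO to WT of -0.33, and 3 of 10 without it, with a median of -0.35. Of all genes measured on both arrays, 48.3% were above 0 with Ang II and 53.3% without it. With 9 and 10 genes these counts are a description. Mrln encodes myoregulin, a small inhibitor of the reticulum pump in skeletal muscle. It had signals of 19.9 in KO Ang II and 10.1 in KO untreated, against 53.4 and 53.4 in WT, and ratios of -1.17 with Ang II and -2.09 without it. Atp2a3, which encodes the pump SERCA3, had 56.9 and 28.3 in KO, against 96.0 and 109 in WT. Its ratio of KO to WT was -0.49 with Ang II and -1.63 without it, and its difference of responses was 1.14. Slc24a3, a sodium-calcium-potassium exchanger, had a ratio of -0.55 with Ang II and -1.29 without it. Hrc, which binds calcium in the reticulum, and Atp2b3, a plasma membrane pump, were well above background on the KO untreated array alone, at least 3.45-fold and 3.15-fold above WT untreated.

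Of the release channels' partners, 4 of 8 measured were above 0 with Ang II and 4 of 7 without it. Trdn encodes triadin, which anchors calsequestrin to the ryanodine receptor. It had signals of 190.5 in KO Ang II and 188 in KO untreated, against 84.4 in WT Ang II and 153 in WT untreated, with a ratio of KO to WT of 1.43 with Ang II and 0.61 without it. On this brighter probe the low array was WT Ang II. The other Trdn probe, A_44_P191715, was well above background in WT untreated only. Its signal was 9.54 there, against 1.81 in KO untreated, so without Ang II it ran the opposite way. With Ang II it was not well above background in either genotype and gave no ratio. The higher reading of Trdn in KO therefore rests on the brighter probe. The store-operated and TRP channels had no gene at 2-fold between genotypes, with 5 of 12 above 0 with Ang II and 5 of 11 without it. None of the mitochondrial uniporter genes reached 2-fold either.

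Among the calcium sensors and effectors, 12 of 18 were above 0 with Ang II and 11 of 17 without it. Rcan1 encodes a regulator of the phosphatase calcineurin. It had signals of 1474 in KO Ang II and 1212 in KO untreated, against 761 in WT Ang II and 1239 in WT untreated. Its ratio of KO to WT was 1.21 with Ang II and 0.28 without it, and again WT Ang II was the low array.

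A pair of receptors that feed Gq was not well above background in KO. Agtr1a, the type 1 angiotensin receptor, had signals of 6.25 and 6.33 in KO, against 27.4 and 25.9 in WT. With the dim KO signals as read, KO was lower by 3.66-fold with Ang II and by 3.29-fold without it. Ednra, the type A endothelin receptor, had 5.48 and 3.20 in KO, against 19.4 and 24.9 in WT, lower in KO by at least 2.73-fold with Ang II and by at least 3.55-fold without it. With Ang II, 15 inputs were compared. Of these, 9 were measured on both arrays, with 8 above 0 and a median ratio of 0.41, against 48.3% of all genes above 0. That count leaves out genes that were dim in KO Ang II. Beside Agtr1a and Ednra, and with dim signals as read, Adra1b was lower there by 1.61-fold and Adra1a by 1.51-fold. Gna11, a G protein of the Gq family, was lower by 1.08-fold, also as read. Without Ang II, 8 of 12 measured were above 0, against 53.3% of all genes. Plcb4, a phospholipase C that Gq switches on, had a ratio of KO to WT of 1.26 without Ang II on its brighter probe and 0.52 on its other one. Itpkb, a kinase that phosphorylates inositol trisphosphate, was 3.13-fold higher in KO than in WT with Ang II, the dim WT signal as read. Ang II in WT gave ratios above 0 for 1 of 14 of these inputs, against 55.2% of all genes. Itpkb was 2.01-fold lower there, its dim signal as read.

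Ang II in KO gave 1 gene of the lists at least 2-fold higher and 5 lower of 72 compared, and in WT none higher and 2 lower of 77. All 6 in KO were bounds. Trpm8, a cold-activated channel, read higher with Ang II than without it by 2.09-fold, its dim signal as read. With dim signals as read, Adra1a, an alpha-1 adrenergic receptor, was lower by 3.58-fold, Hrc by 2.04-fold and Cacna1h by 2.0-fold. Atp2b3 was lower by at least 2.50-fold and Atp2b1, a plasma membrane pump, by at least 2.23-fold. The shares of all genes at 2-fold were 1.84% for Ang II in KO and 3.01% for Ang II in WT.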

How the data were processed

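Total RNA of rat vessels was labelled with Cy3 from 100 ng, per the labels' protocols, and hybridised to 4 arrays on 1 slide with 1 scan time, so slide position and group cannot be told apart. The authors deposited scanner output as intensity values, background-subtracted within the array per the file headers. For Agilent Feature Extraction, version 12.1.1.1 stands in the submitters' processing notes and 10.7.1.1 in the file headers. The authors also deposited a table of log2 values, which differed from the log2 scanner signal by 1 constant per array, to within 0.01, for 98.3% to 98.4% of probes. Column medians were 2.11, 2.27, 2.22 and 2.29 for KO Ang II, KO untreated, WT Ang II and WT untreated.

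Spots marked by the software as outliers (301 to 372 an array) were left out, spots of a probe were averaged, and 4 of 45598 probes were dropped. Accessions named 21109 probes and left 24489 unnamed. A gene took its brightest probe by mean of those that passed the software's background call on 1 array or more. With 1 dim side, that side took the larger of its own signal and the array's lowest signal well above background (5.30 to 7.14). Single comparisons used a 2-fold size rule without a test. The additive fit used limma 3.58.1 in R 4.3.3 with all genes that passed the call on 2 arrays or more, dim values as read. Other steps used Python 3.11.15 with scipy 1.17.1, pandas 2.3.3, matplotlib 3.10.9 and numpy 2.4.6. The size rule and the additive fit were run on simulated gene levels, with every gene taken as detected. Outlier spots, choice of probe, bounds and differences of responses were not simulated. Noise was drawn independently for each array, with each gene's spread taken from the fit itself. The counts that follow therefore do not give the share of true differences that the fit would find on the real arrays. The fit called 40 of 9187 genes without a true genotype difference and 95 of 100 with a true 2-fold one. Of those 100, 45 passed the size rule without Ang II.

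The 10 genes, the 7 pathway lists and the 9 marker lists were chosen with earlier results of these data known. All 10 genes are named. Of each pathway list, the 3 genes with the largest ratio past 2-fold in a comparison and the 2 largest bounds are named; marker lists are given by sums, counts and medians, with some members named. Genes of like pattern were to be named for a span of levels of at least 1, which none reached. Alternatives were normexp (offset 50, on median pixel signals because mean signals are not in the columns used), quantile normalization, other scalings, the mean of a gene's probes, no bounds, outlier spots kept, the authors' log2 table, no filter in the fit and a 1.5-fold rule. Having 1 array per group limits the precision.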

Additional observations from a re-analysis of the deposited data

Results flagged for a closer look

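Pln and Itpr1 were flagged because Ang II gave ratios of opposite sign in the genotypes, each larger than its technical error. The share of all genes that meet this rule was not computed. With 1 array in each group, neither difference was tested.

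For Pln, by its probe A_44_P1082908, Ang II gave 0.36 ± 0.23 in KO and -0.74 ± 0.22 in WT, a difference of responses of 1.10. On its other probe, A_44_P226941, that difference was -0.02. For Itpr1, by the probe A_64_P156632, Ang II gave 0.16 ± 0.04 in KO and -0.07 ± 0.05 in WT, a difference of 0.23. The KO ratio of Pln and the WT ratio of Itpr1 lay within 2 technical errors. The sign of that Itpr1 ratio turned under normexp.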

How the results depend on the processing

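At a 1.5-fold rule, 3 of 8 genes compared passed for KO against WT with Ang II (Cacna1c, Cacnb2, Trpc6). Without it 3 of 9 passed (Cacna1c, Orai1, Pln). For Ang II in WT 3 of 9 passed (Atp2b4, Orai1, Pln), and in the difference of responses 2 of 7 (Orai1, Pln). Trpc6 and Atp2b4 passed as bounds, and Pln by its brighter probe. The share of all genes past 1.5-fold was not computed, so these counts are a description only. At 2-fold, the count of 1 in the difference of responses was 0 with normexp and 0 when a gene's probes were averaged. In the additive fit, the authors' deposited log2 values gave 8 genes called for genotype, against 0. These values are rounded. Of 40 ratios of the 10 genes, 32 kept their sign under every alternative run and 8 turned. Of 312 recomputed ratios, 21 moved by more than their technical error. Bounds have no technical error and were held against the arrays' median SD of replicate spots in its place. With normexp, Cacna1c was at 0.49 with Ang II and 0.25 without it for KO against WT, and Cacnb2 at 0.40 and -0.01. Over all genes, normexp left 155 genes at 2-fold for KO against WT with Ang II, against 690, and 114 without it, against 669. It left 4 for Ang II in KO, against 171, 37 in WT, against 296, and 70 in the difference of responses, against 356. Slide as a block was not run because all arrays lay on 1 slide. No paired analysis was possible because each group holds 1 array. Signals near background limit Orai1, Trpc6, Atp2b4, Ryr2 and Pln. The 4 arrays limit every comparison.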
